A study of Mus musculus with 4 samples.

Results

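Fc receptors let immune cells sense antibody, and 8 genes of this group were followed here through the immune cells of the healthy mouse liver. The genes are Fcgr1, Fcgr2b, Fcgr3 and Fcgr4 (receptors for IgG) and Fcer1g (the signalling chain shared by those of Fcgr1, Fcgr3 and Fcgr4). The others are Fcgrt (the neonatal Fc receptor), Fcer2a (an IgE receptor) and Fcmr (the IgM receptor). All of these are 8 of the 32285 genes in the count matrices, were chosen by name, and all 8 were found. The study profiled single CD45+ cells, which are leukocytes, by droplet RNA sequencing of the livers of PA-GFP mice on the C57BL/6 background. PA-GFP is a fluorescent protein that light switches on, and all libraries carry the label of photoactivation, so that no group is without it. There were 2 libraries from the portal vein zone (PV), where blood enters the liver, and 2 from the central vein zone (CV), where blood leaves it. The labels used here give no age or sex and do not tell whether different mice were used for the replicates. The p-values below therefore rest on the spread between libraries, which may be technical.

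Antibodies bound to a microbe or a protein are recognised through their Fc end. Fcgr1, Fcgr3 and Fcgr4 encode activating IgG receptors that signal through an immunoreceptor tyrosine-based activation motif (ITAM) of the chain encoded by Fcer1g, whereas Fcgr2b encodes the inhibitory receptor, which carries an inhibitory motif and sets the threshold for the others. Fcgrt encodes the heavy chain of a receptor that pairs with beta-2 microglobulin and returns IgG and albumin from endosomes to the blood. Fcer2a encodes CD23, a C-type lectin that binds IgE with low affinity, and Fcmr binds IgM. In the liver, Kupffer cells, the resident macrophages of the sinusoids, take up particles coated with IgG, and sinusoidal endothelial cells are known for FcγRIIb, the product of Fcgr2b.

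On the mouse genome build GRCm38, 4 of the genes lie within 275749 bases of chromosome 1. Fcgr2b spans 170958617 to 170976547 on the minus strand, Fcgr4 171018920 to 171029761 on the plus strand, Fcgr3 171051174 to 171064935 on the minus strand and Fcer1g 171229572 to 171234365 on the minus strand. Between Fcgr2b and Fcgr4 there are 42372 bases, and between Fcgr4 and Fcgr3 21412. Fcmr lies elsewhere on chromosome 1 (130865669 to 130880791), Fcgr1 on chromosome 3 (96282909 to 96293969), Fcgrt on chromosome 7 (45092990 to 45103851) and Fcer2a on chromosome 8 (3681737 to 3694175). The neighbours Fcgr2b and Fcgr3 shared 233 stretches of 31 bases among their annotated transcripts, and none of the other 27 pairs shared any. The last 500 bases of their transcripts, where 3' counting takes most of its reads, shared 0 such stretches with each other. However, 76 stretches from the ends of Fcgr2b transcripts occurred elsewhere in Fcgr3 transcripts, and 5 from the ends of Fcgr3 in those of Fcgr2b, so some reads of this pair could be shared.

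The 150 bases before a transcript start in RefSeq are shown for the genes of the activating IgG receptors, because all 3 genes were high in both macrophage classes. Those of Fcgr2b are shown because it was low in Kupffer cells. The sequences are from RefSeq on GRCm38.p6, 5' to 3' on the strand of the gene, and capitals mark CTTCCTC, the reverse complement of GAGGAAG, which is a core of sites bound by PU.1 and other ETS factors.
Fcgr1: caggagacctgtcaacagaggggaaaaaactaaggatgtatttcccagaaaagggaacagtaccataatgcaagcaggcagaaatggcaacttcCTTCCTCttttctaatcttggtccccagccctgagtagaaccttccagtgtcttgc
Fcgr3: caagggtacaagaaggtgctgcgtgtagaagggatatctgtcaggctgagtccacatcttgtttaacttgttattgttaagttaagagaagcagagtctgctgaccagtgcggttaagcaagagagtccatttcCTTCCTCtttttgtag
Fcgr4: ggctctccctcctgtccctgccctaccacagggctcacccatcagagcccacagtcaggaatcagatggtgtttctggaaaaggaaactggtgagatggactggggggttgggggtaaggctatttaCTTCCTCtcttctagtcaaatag
Fcgr2b: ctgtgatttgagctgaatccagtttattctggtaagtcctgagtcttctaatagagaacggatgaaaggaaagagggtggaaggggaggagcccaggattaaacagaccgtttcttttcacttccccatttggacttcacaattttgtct
These windows lie at chr3:96293970-96294119, chr1:171059395-171059544, chr1:171018776-171018925 and chr1:170976072-170976221. The gene spans given above come from another annotation, GENCODE, whose starts differ for some genes. The windows of Fcgr3 and Fcgr2b lie inside those spans, and that of Fcgr4 ends just inside its span. The letters GAGGAAG, read on both strands, were present in the windows of Fcgr1, Fcgr3 and Fcgr4, at 56 to 50, 16 to 10 (7 to 1 from another start) and 23 to 17 bases before the start, and in no window of the other 5 genes. Of 32851 windows of this length in the RefSeq table, 6.85% held them. The motif was chosen after the sequences were seen, and a match describes letters, not binding. The octamer ATGCAAAT, the EBF1 palindrome and the C/EBP palindrome TTGCGCAA were in none of the 8 genes' windows, and the E-box CAGGTG was in that of 1 of 3 starts of Fcer2a. These 4 motifs, searched on both strands, were present in 0.998%, 0.447%, 0.113% and 10.6% of all windows.

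The 4 matrices held 588 to 755 barcodes and 2741760 to 4373488 unique molecular identifiers (UMIs, which count RNA molecules) each. Of 1939 distinct barcodes, 282 were listed in more than 1 library and 152 in all 4, so that some cells or droplets were counted several times. Each barcode was therefore kept only in the library holding at least 70% of its UMIs, which left 333 and 512 cells in PV replicates 1 and 2 and 372 and 376 in CV replicates 1 and 2, with medians of 5369 to 6317.5 UMIs per cell. PV replicate 1 stood apart, with 4 Kupffer cells against 38 to 106 in the other libraries, and with 64 against 83 to 136 when shared barcodes were kept.

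Cells were placed in classes by marker genes, none of them one of the 8 receptor genes. There were 690 T cells, 196 Kupffer cells, 154 B cells, 92 natural killer (NK) cells and ILC1, 86 neutrophils, 80 type 1 and 33 type 2 conventional dendritic cells (cDC1 and cDC2), 54 other macrophages and 29 plasmacytoid dendritic cells. In each of these classes, every marker of its own list was detected, but the gate used these lists, so this is no check of the class names. Kupffer cells, for example, also held all 8 endothelial markers, at 718 CPM summed against 16173 for their own list. A further 114 cells with markers of unrelated lists and 23 with too few markers were left out. Levels are given as CPM, the UMIs of a gene scaled to the summed UMIs of the class, per library, and a library enters the mean and SD only where it had at least 10 cells of the class. The cDC2 values are therefore from the PV libraries alone, and zones and classes cannot be told apart for this class. The 9 monocytes, at most 5 in a library, have no such mean and are left out of the class orders below. Pooled, they had 37.2 CPM of Fcgr1, 285 of Fcgr2b, 384 of Fcgr3 and 198 of Fcgr4. They also had 3039 CPM of Fcer1g and 74.4 of Fcgrt, and 0 UMIs of Fcer2a and Fcmr.

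The genes for the activating IgG receptors were all high in both macrophage classes, and Fcgr3 and Fcgr4, but not Fcgr1, were high in neutrophils as well. Fcgr1, the high-affinity IgG receptor, was at 231 CPM in the Kupffer cells of PV replicate 2 and at 165 and 152 in those of CV replicates 1 and 2. Other macrophages had 220 and 155 CPM in PV and 363 and 140 in CV. The means were 183 ± 42.5 (SD, n = 3) and 219 ± 102 (n = 4), with ranges that overlapped. Outside macrophages, Fcgr1 had 1 UMI in 86 neutrophils, 5 UMIs in 33 cDC2 and 3 UMIs in 9 monocytes. It had 0 UMIs in B cells, NK cells and ILC1, T cells and cDC1.

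Fcgr3, a low-affinity activating receptor, was shared more widely. Neutrophils had 302 and 622 CPM in PV and 405 and 386 in CV, for a mean of 429 ± 136 (n = 4). Other macrophages averaged 421 ± 99.5 (n = 4), from 322 to 544 CPM, and Kupffer cells 371 ± 27.0 (n = 3), from 343 to 397. These 3 classes overlapped in range and stood above the rest of the classes with a mean over libraries. The 9 monocytes, at 384 CPM pooled, lay among them. NK cells and ILC1 followed with 82.5, 45.5 and 68.7 CPM (PV replicate 2, CV replicates 1 and 2; mean 65.6 ± 18.7), and cDC2 with 44.8 and 55.4 CPM. T cells had 4 UMIs in 690 cells, and B cells and cDC1 had none.

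Fcgr4, the activating receptor that lies between Fcgr2b and Fcgr3, had the clearest order of the genes for IgG receptors. It was highest in Kupffer cells, at 443, 635 and 465 CPM (mean 514 ± 105, n = 3), then in other macrophages at 244, 224, 317 and 220 CPM (251 ± 45.3, n = 4) and in neutrophils at 126, 181, 172 and 96.6 CPM (144 ± 39.9, n = 4). The ranges of neighbours in this order did not overlap. The cDC2 were lower again, at 22.4 and 21.3 CPM, and no Fcgr4 UMI was found in NK cells and ILC1. After each cell was thinned to 2000 UMIs, 13 of 170 Kupffer cells and 3 of 46 other macrophages held UMIs of all 3 activating receptor genes, against 0 of 81 neutrophils. At this depth, 80.6%, 80.4% and 49.4% of the cells of these classes held at least 1 of them. Since Fcgr1 had 1 UMI in all 86 neutrophils, their 0 was nearly fixed in advance. Whether the 3 genes met in a cell more often than their single shares give was not tested.

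**Figure D1:**
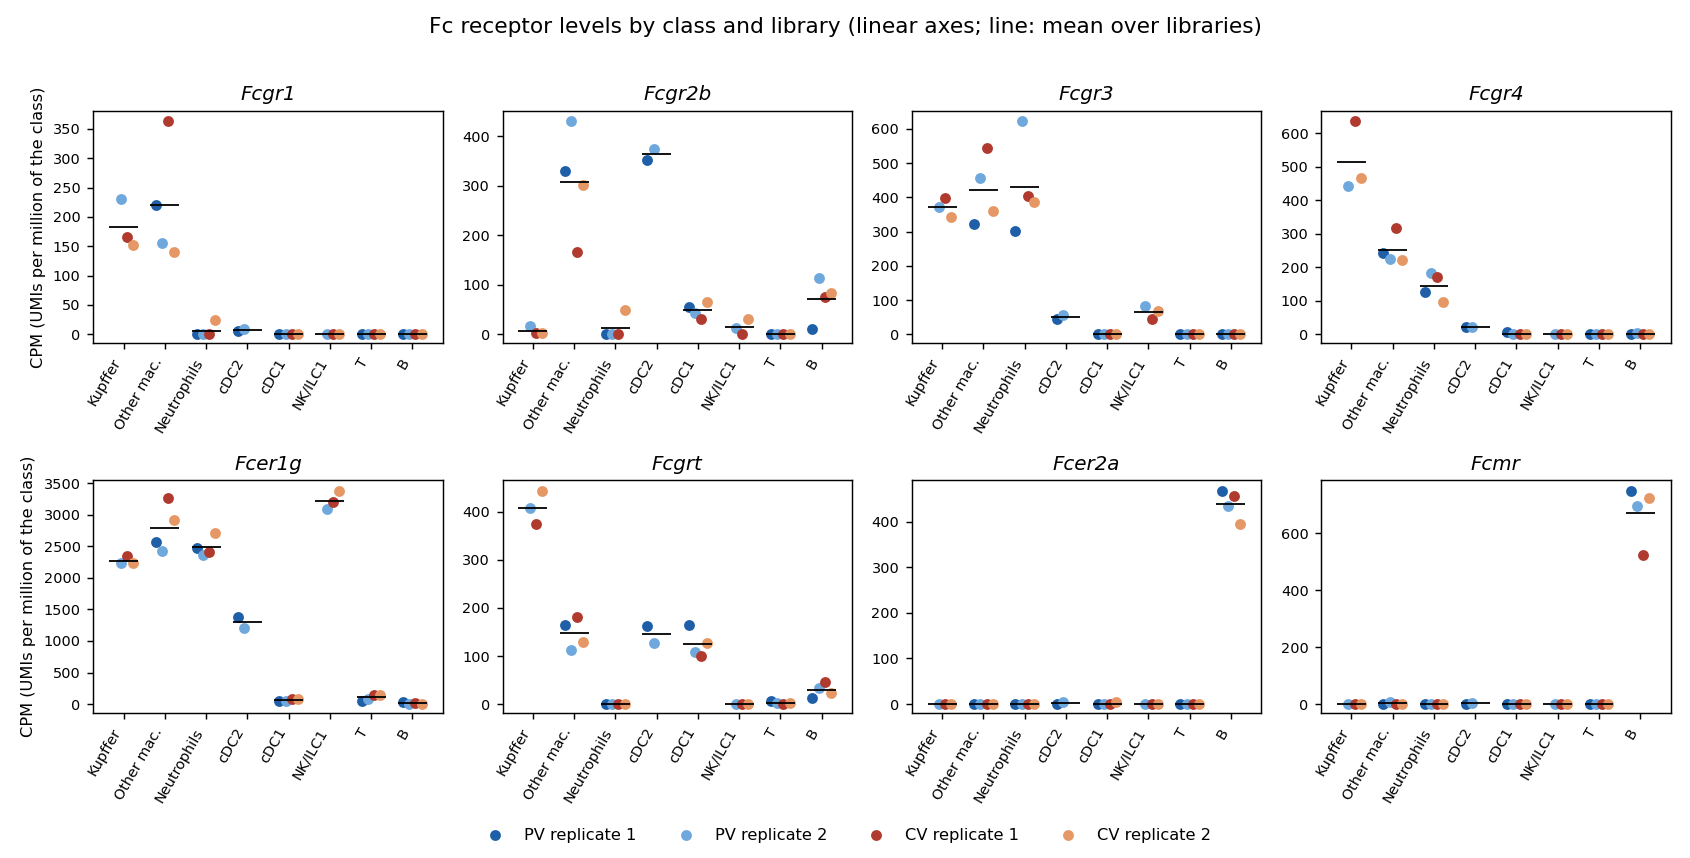
Levels of the 8 Fc receptor genes in CPM (linear axes) by cell class, with 1 point per library of at least 10 cells and a line at the mean. Fcgr1 was high in both macrophage classes, Fcgr4 fell from Kupffer cells (514 CPM) to other macrophages (251 CPM) and neutrophils (144 CPM), and Fcer2a and Fcmr stood high in B cells only.

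The gene for the inhibitory receptor, Fcgr2b, had a different order. In cDC2 it was at 352 and 375 CPM (mean 364 ± 15.9, n = 2) and in other macrophages at 330, 430, 166 and 300 CPM (307 ± 109, n = 4), 2 classes that overlapped. B cells, where FcγRIIb is the usual Fc receptor for IgG, had 11.7 and 114 CPM in PV and 76.0 and 83.7 in CV, with 1 UMI in the 19 B cells of PV replicate 1. The cDC1 had 48.8 ± 15.2 CPM (n = 4). Kupffer cells were near the bottom, at 16.7, 2.80 and 3.04 CPM.

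Kupffer cells held 16 UMIs of Fcgr2b in 6 of 196 cells, and 10 of these UMIs lay in 1 cell of PV replicate 2. The endothelial class had 130 UMIs of Fcgr2b in 12 cells, or 3037 CPM pooled (95% Poisson interval 2537 to 3606), the highest level of any class, from PV replicate 2 and CV replicate 2 only. Kupffer cells with no UMI of 6 endothelial markers (Clec4g, Kdr, Ptprb, Oit3, Bmp2 and Egfl7) had 3 UMIs of Fcgr2b, in 3 of 156 cells. The 40 with at least 1 had 13 UMIs in 3 cells, and 10 of the 13 lay in that 1 cell of PV replicate 2. The part of endothelial RNA in the Fcgr2b of Kupffer cells was not tested. These 6 markers were chosen after seeing the data from a list of 8, leaving out Cdh5 and Stab2, of which the 156 cells held 584 and 73.8 CPM against 794 and 1425 in the endothelial class. A further 6 cells of PV replicate 2 carried at least 3 Kupffer and at least 3 of these endothelial markers, were counted as mixed, and held 41 UMIs of Fcgr2b, or 723 CPM. In other macrophages, 26 of 54 cells held Fcgr2b and the 6 endothelial markers summed to 7.33 CPM. Of the 7 cDC2 markers, 4 were detected in them, summing to 137 CPM (15.1 to 228 by library), and Cd209a, Cd209d and Flt3 were at 0. Their part in the level of Fcgr2b was not tested. In CV replicate 1, the lowest, 10 of its 11 UMIs lay in 1 of 10 such cells. Intervals and limits from counts cover counting error only.

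The UMIs of the activating genes over those of Fcgr2b were compared between classes. Each UMI stands for 1 molecule whatever the length of the gene, but genes can be captured unequally, so the ratio was read between classes and not against 1. Kupffer cells had 878 activating against 14 inhibitory UMIs in PV replicate 2, 428 against 1 in CV replicate 1 and 316 against 1 in CV replicate 2. Other macrophages had 100 against 42, 97 against 50, 81 against 11 and 72 against 30, which are ratios of 2.38, 1.94, 7.36 and 2.40. Pooled over libraries, the ratio was 101 in Kupffer cells and 2.63 in other macrophages, and no library of one class reached the range of the other.

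Neutrophils also lay high, with 153 activating and 2 inhibitory UMIs, both of the latter in CV replicate 2. The dendritic cells and B cells had lower ratios than the macrophages and neutrophils. The cDC2 had ratios of 0.206 and 0.227, cDC1 had 6 activating against 81 inhibitory UMIs, and B cells 1 against 50. No test was run on these ratios.

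**Figure D2:**
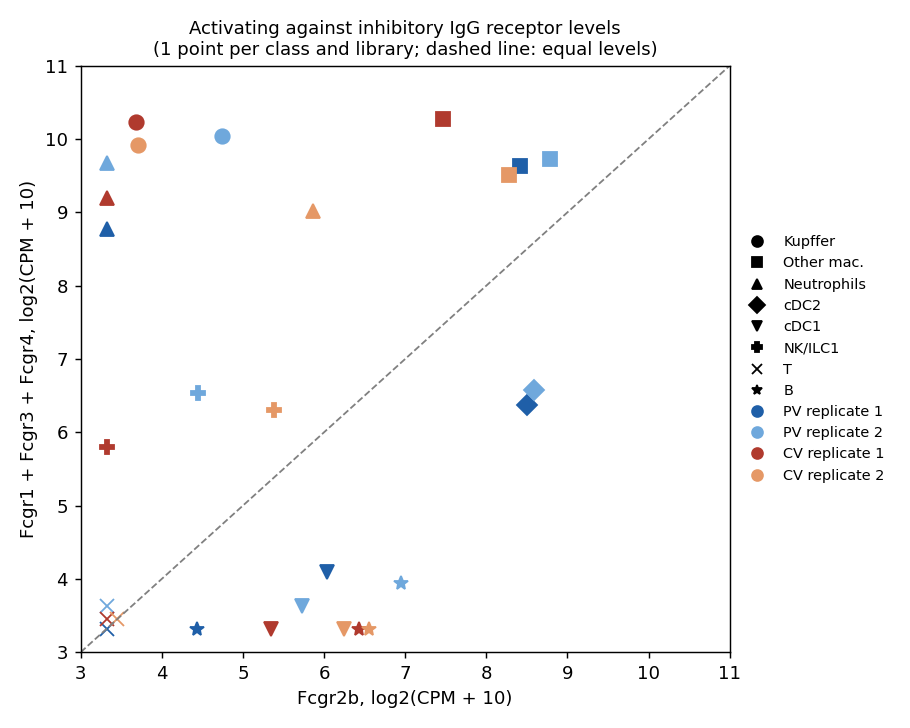
Summed level of Fcgr1, Fcgr3 and Fcgr4 (vertical) against the level of Fcgr2b (horizontal), both as log2(CPM + 10), with 1 point per class and library of at least 10 cells and a dashed line at equal levels, drawn as a guide only. Kupffer cells and neutrophils sit at the upper left, other macrophages at the upper right (ratios of 1.94 to 7.36), and cDC2, cDC1 and B cells lower in the plot.

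Fcer1g, which encodes the ITAM chain of the activating receptors and of FcεRI, was the most abundant of the 8 genes and the widest in range. NK cells and ILC1 had 3087, 3211 and 3378 CPM (mean 3225 ± 146, n = 3), other macrophages 2564, 2434, 3264 and 2915 (2794 ± 374, n = 4), neutrophils 2487 ± 154 (n = 4) and Kupffer cells 2243, 2352 and 2230 (2275 ± 67.2, n = 3). NK cells and ILC1 overlapped with other macrophages, and other macrophages with neutrophils. Neutrophils and Kupffer cells did not overlap, but their nearest libraries had 2357 and 2352 CPM. The cDC2 had 1387 and 1206 CPM, and plasmacytoid dendritic cells 1334 CPM in the only library with at least 10 of them, whereas cDC1 were at 64.0 ± 15.3 CPM (n = 4) and B cells at 15.1 ± 14.1. Fcer1g was also found without the activating IgG receptor genes: plasmacytoid dendritic cells had 0 UMIs of Fcgr1, Fcgr3 and Fcgr4 in 29 cells, against 3 of Fcgr2b and 361 of Fcer1g.

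T cells as a class had 106 ± 49.5 CPM of Fcer1g (n = 4), from 466 UMIs in 68 of 690 cells. The 190 T cells with at least 2 NK cell markers held 422 of the 466 UMIs, at 193 and 215 CPM in PV and 460 and 372 in CV. The other 500 T cells held 44 UMIs, at 3.05, 21.8, 24.8 and 7.70 CPM. The 29 T cells with a UMI of Trdc, the constant region of the delta chain of the T cell receptor, held 201 UMIs, all of them in 10 cells. Most Fcer1g RNA of the T cell class thus lay in few cells with NK genes, and 31 cells with at least 5 UMIs were found in all. These splits were chosen after the values were seen, and the part of NK cells or doublets in them was not tested.

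**Figure D3:**
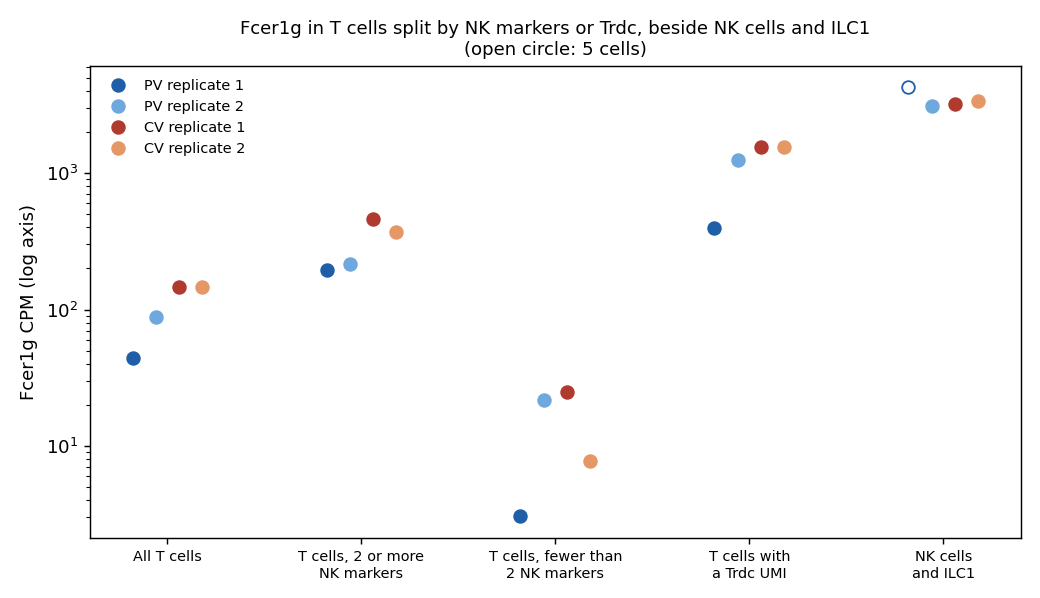
Fcer1g in CPM (log axis) in all T cells, in T cells with at least or fewer than 2 NK cell markers, in T cells with a Trdc UMI, and in NK cells and ILC1, with 1 point per library (open: the 5 cells of PV replicate 1). T cells with at least 2 NK markers lie at 193 to 460 CPM and those with fewer at 3.05 to 24.8 CPM, below NK cells and ILC1 at 3087 CPM or more.

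Fcgrt, which recycles IgG and albumin, was found mainly in macrophages and conventional dendritic cells. It was highest among the leukocytes in Kupffer cells, at 408, 375 and 443.6 CPM (mean 409 ± 34.4, n = 3). Other macrophages had 165, 112, 181 and 130 CPM (147 ± 31.8, n = 4), cDC2 162 and 128, and cDC1 164, 108, 99.5 and 127 (125 ± 28.8, n = 4), and these 3 classes overlapped. B cells were lower, at 28.3 ± 14.4 CPM, and plasmacytoid and mature dendritic cells had 36.1 and 31.4 CPM pooled. The 12 endothelial cells had 30 UMIs, or 701 CPM pooled (95% Poisson interval 473 to 1000.3). Neutrophils and NK cells and ILC1 had 0 UMIs, which allow up to 10.9 and 6.70 CPM.

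Fcer2a and Fcmr were B cell genes. Fcer2a was at 467 and 434 CPM in the B cells of PV and 456 and 395 in those of CV (438 ± 31.6, n = 4), and Fcmr at 747, 695, 525 and 721 CPM (672 ± 101, n = 4). In the other classes, Fcer2a had 1 UMI each in cDC1, cDC2 and plasmacytoid dendritic cells, and Fcmr 1 UMI each in other macrophages and cDC2. Fcmr, whose receptor has been described on further lymphocytes, had 1 UMI in 690 T cells (0.219 CPM, 95% Poisson interval 0.00555 to 1.22) and 0 in 92 NK cells and ILC1. The 9 plasma cells had 0 UMIs of Fcer2a and 2 of Fcmr.

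Depth differed between classes, from a median of 3131 UMIs in neutrophils to 21833.5 in cDC1, so shares of cells were taken after thinning each cell to 2000 UMIs. Fcer1g was then found in 100% of 86 NK cells and ILC1 (95% Wilson interval 95.7 to 100), 98.8% of 81 neutrophils and 91.2% of 170 Kupffer cells, but 11.2% of 80 cDC1. Fcgr2b was found in 57.6% of 33 cDC2 (40.8 to 72.8), 34.8% of 46 other macrophages (22.7 to 49.2), 15.1% of 146 B cells and 0.588% of Kupffer cells. Fcmr was found in 66.4% of B cells (58.4 to 73.6) and Fcer2a in 50% (42.0 to 58.0). T cells, which should lack most of these genes, were taken as the background. They had 0 of 676 cells for Fcgr1, Fcgr2b, Fcer2a and Fcmr, which allows up to 0.4438%. For Fcgr3, Fcgr4 and Fcgrt they had 2, 1 and 3 cells, and the source of these UMIs was not tested. Of 64 pairs of a gene and a class of at least 20 cells, 31 had a share above that of T cells with intervals that did not overlap, and 25 did when cells were thinned to 1000 UMIs and 36 with no thinning. Among them, Fcer2a in plasmacytoid dendritic cells rested on 1 cell, and Fcgr2b in neutrophils and in NK cells and ILC1 on 2 cells each. Fcgr3 and Fcgr4 in cDC2 rested on 3 cells each. The same count was not taken over all genes, so whether 31 of 64 is unusual cannot be told. The intervals pool the cells of all libraries and leave out the spread between libraries. For Fcer1g, T cells were not an empty background, since 68 of 690 held it before thinning.

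**Figure D4:**
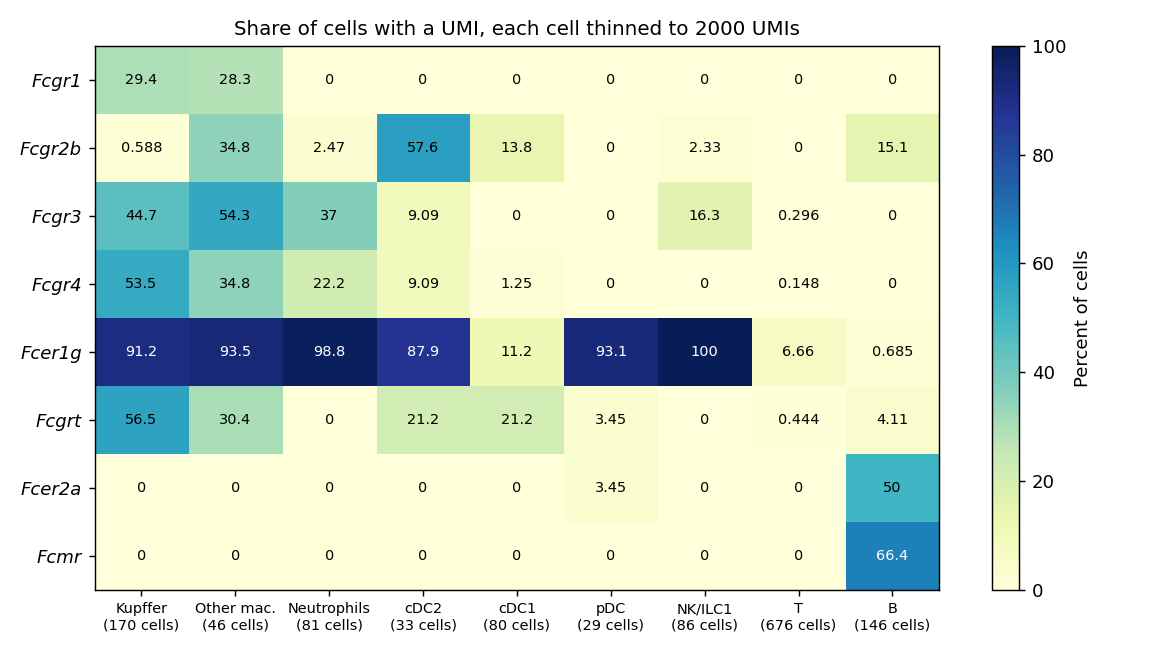
Percent of cells with at least 1 UMI of each Fc receptor gene by class, all libraries pooled, after each cell was thinned to 2000 UMIs (shallower cells left out). Rows for Fcer2a and Fcmr are filled in B cells (50% and 66.4%) and the row for Fcer1g in 6 classes at 87.9% or more.

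Kupffer cells were tested against other macrophages in the 3 libraries with at least 10 of both, using sums per library and edgeR's quasi-likelihood test with the library as a block. Of 6 receptor genes tested, 3 passed at an adjusted p of 0.05, where 16.2% of all 4033 genes did. Fcgr2b was lower in Kupffer cells, with a log2 ratio of -5.32 ± 0.46 (SE, adjusted p = 8.32e-11 with edgeR). The change was -6.24 without PV replicate 2 and -6.87 in Kupffer cells with none of the 6 endothelial markers. Both fits leave out the 1 Kupffer cell that held 10 UMIs of Fcgr2b. The gate let other macrophages, but not Kupffer cells, carry cDC2 markers without being mixed, and its part in this change was not tested. Fcgrt was higher in Kupffer cells, at 1.40 ± 0.32 (edgeR adjusted p = 0.00167), and higher in 3 of 3 libraries. Fcgr4 was higher as well, at 0.84 ± 0.28 (edgeR adjusted p = 0.0346), and again in 3 of 3 libraries. The direction of Fcgrt and Fcgr4 held in each of 10 alternatives, but Fcgrt lost its call without PV replicate 2 (edgeR adjusted p = 0.0812) and Fcgr4 lost it in 6 of the 10, with DESeq2 and without any 1 library among them (adjusted p up to 0.222). Fcgr1, Fcgr3 and Fcer1g had log2 values of -0.32, -0.45 and -0.50 and did not pass.

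The listed partners of these receptors are read against the same 16.2% of all genes, and their share was near it. Among 16 tested genes of Fc receptor signalling, 0 were higher and 1 was lower in Kupffer cells, with a median log2 of 0.22 against 0.0255 for all genes. The one called was Lat2, a membrane adaptor that is phosphorylated downstream of ITAM receptors, at 2.62 CPM in Kupffer cells and 128 in other macrophages (log2 -5.71 ± 0.71, edgeR adjusted p = 2.26e-07). Of 3 tested receptors that pair with the Fcer1g chain, Pira2 was higher in Kupffer cells (2.95 ± 0.49, edgeR adjusted p = 3.15e-05) and Clec4n, Dectin-2, was lower (-1.22 ± 0.33, adjusted p = 0.00729). Among 3 other antibody-related receptors, Lilrb4a, an inhibitory receptor, was lower (-1.09 ± 0.27, adjusted p = 0.00377).

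Against neutrophils, 3 of 5 tested receptor genes passed, where 52.6% of all genes did and the median of all genes was shifted to 0.58. Fcgr4 was higher in Kupffer cells by 1.62 ± 0.40 on the log2 scale (edgeR adjusted p = 0.000486), which is 1.04 above that median. Fcgrt had 622 UMIs against 0, at least 26.6-fold higher, and Fcgr1 303 against 1, or 38.9-fold (counting interval 6.94 to 1543). Fcgr3 (-0.45 ± 0.35) and Fcer1g (-0.26 ± 0.33) did not pass, and lay 1.03 and 0.84 under that median. Of 6 tested receptors that pair with Fcer1g, 2 were higher and 3 lower in Kupffer cells, with a median of -4.10. Clec4d, a C-type lectin, had 3.28 CPM in Kupffer cells and 1760 in neutrophils, while Lilra5 was at 334 CPM and 0.

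Against B cells, all 8 receptor genes passed, where 58.8% of all genes did. Fcer1g (7.88 ± 0.29), Fcgrt (3.37 ± 0.31), Fcgr1 (303 UMIs against 0, at least 35.1-fold), Fcgr3 (567 against 0, at least 65.7-fold) and Fcgr4 (752 against 1, 262-fold, counting interval 46.8 to 10346) were higher in Kupffer cells. Fcgr2b was lower in Kupffer cells by a log2 of -3.66 ± 0.49 (edgeR adjusted p = 3.71e-10), or -4.82 without PV replicate 2. Fcer2a and Fcmr had 0 UMIs in Kupffer cells and were at least 216-fold and at least 337-fold higher in B cells.

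The dendritic cell types were compared in the 2 PV libraries, with 1 residual degree of freedom. Of 4 tested receptor genes, 3 passed, where 6.87% of all genes did. Fcer1g was higher in cDC2 than in cDC1 by a log2 of 4.602 ± 0.28 (edgeR adjusted p = 0.000107) and Fcgr2b by 2.81 ± 0.32 (adjusted p = 0.0018), each in 2 of 2 libraries. Fcgr3 had 21 UMIs against 0, at least 18.9-fold, and passed with edgeR (adjusted p = 0.0224) but not with DESeq2 (adjusted p = 0.0867). Fcgrt was at 143 CPM in both and did not pass (0.05 ± 0.30). Among 16 tested genes of Fc receptor signalling, 4 were higher in cDC2 and 0 lower, with a median of 0.66 against 0.00247 for all genes. They were the kinase Fgr (3.45), the ITAM adaptor Tyrobp (1.09), the phosphatase Ptpn6 (1.33) and Lat2 (1.67).

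NK cells and ILC1 were compared with T cells in 3 libraries, where 10.5% of all genes passed and both tested receptor genes did. Fcer1g was higher in NK cells and ILC1 by 4.44 ± 0.13 (edgeR adjusted p = 8.27e-30), and by 7.15 against T cells with fewer than 2 NK markers. Fcgr3, known as CD16 on NK cells, was higher by 5.32 ± 0.71 (edgeR adjusted p = 8.67e-08), from 27 UMIs against 4. Of 18 tested signalling genes, 7 were higher in NK cells and ILC1 and 3 lower, with a median of 0.44 against -0.0196 for all genes. Tyrobp (5.001), Lat2 (4.92) and Syk (5.51) were among the higher ones, while Lat, the T cell counterpart of Lat2, was lower (-1.63). Ncr1 and Klrb1c, which pair with or act beside Fcer1g, were markers of the gate and are no result here.

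B cells were compared with T cells in all 4 libraries, where 29.8% of all genes passed and 5 of 5 tested receptor genes did. Fcer2a had 265 UMIs against 0, at least 654-fold higher, Fcmr 416 against 1 (3082-fold, counting interval 550.04 to 122003) and Fcgr2b 50 against 1 (370.4-fold, 63.5 to 14918). Fcgrt was higher in B cells by 3.50 ± 0.80 (edgeR adjusted p = 0.00059), with 4.21 without PV replicate 1 and 2.88 without CV replicate 1. Fcer1g was lower in B cells by a log2 of -3.16 ± 0.44 (adjusted p = 2.76e-07), with -3.89 without PV replicate 1 and -2.53 without CV replicate 2. Of 9 tested antibody-related receptors, 5 were higher in B cells and 2 lower, with a median of 5.17 against -0.0505 for all genes. Fcrla (274 CPM against 0) and Fcrl1 (138 against 0.219), members of the Fc receptor-like family, were among the higher ones, and B2m, the light chain partner of Fcgrt, was lower (-1.05 ± 0.07). Cd22, also on that list, was a marker of the B cell gate.

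The zones were then compared within each class with at least 10 cells in every library. In the 5 classes, 16 tests of a receptor gene were possible and 0 passed with edgeR or with DESeq2, and 1 had an unadjusted p under 0.05. Of all genes, 0% passed in T cells, 0% in B cells, 0% in cDC1, 0% in neutrophils and 0.684% in other macrophages. At an unadjusted p under 0.05, the numbers in the same order were 235 of 7816, 56 of 2086, 243 of 3699, 25 of 846 and 138 of 1608 genes. The range of PV did not overlap that of CV in 4 of the 16 tests. With 2 libraries against 2, random order alone separates the zones with a probability of 0.333. The share of all genes so separated was not taken, and the count is no sign of a zone difference.

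The largest difference was that of Fcer1g in T cells, at 44.5 and 87.7 CPM in PV and 146 and 146 in CV. Both PV libraries were lower than both CV libraries, with a log2 of -1.19 ± 0.27 (edgeR adjusted p = 0.9998). This gene passed when any of PV replicate 2 (log2 -1.77, edgeR adjusted p = 3.54e-06), CV replicate 1 (-1.20, adjusted p = 0.000189) or CV replicate 2 (-1.17, adjusted p = 0.000514) was left out, but not without PV replicate 1 (-0.76). In these 3 fits, 35 to 56 of all genes passed in place of 0. Each of them has 1 library in one zone, which is assumed to vary like the 2 of the other zone, so they are no support for the difference. In T cells with fewer than 2 NK markers the log2 value was -0.55. The NK cell markers summed to 463 and 603 CPM in T cells of PV and 649 and 588 in those of CV, and their part in the difference was not tested. T cells without a Trdc UMI had 23.6 and 72.0 CPM of Fcer1g in PV and 61.2 and 89.4 in CV, ranges that overlapped. The part of the few T cells with Trdc in the difference was not tested either.

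In other macrophages, Fcgr2b was at 330 and 430 CPM in PV against 166 and 300 in CV (0.71 ± 0.45, edgeR adjusted p = 0.724). In the same cells the cDC2 markers summed to 228 and 155 CPM in PV and 15.1 and 80.1 in CV, while the monocyte markers were at 503 and 430 CPM in PV against 877 and 1723 in CV. The part of both lists in the difference was not tested. Fcer1g was at 2564 and 2434 CPM in PV against 3264 and 2915 in CV (-0.27 ± 0.33). In cDC1, Fcer1g was at 51.5 and 50.4 CPM in PV against 80.4 and 73.8 in CV (-0.54 ± 0.34, adjusted p = 0.837). Groups did not overlap in these 3 cases and did in the remaining 12. B cell Fcer2a (0.06 ± 0.25) and Fcmr (0.17 ± 0.24) had the narrowest errors. Kupffer cells and NK cells and ILC1, which had 4 and 5 cells in PV replicate 1, were fitted as an addition chosen after seeing the data, and 0 of 5 and 0 of 1 receptor genes passed, where 0.0207% and 0.0485% of all genes did. The Kupffer cell values were 0.41 for Fcgr1, 0.08 for Fcgr3, -0.34 for Fcgr4, -0.13 for Fcer1g and 0.11 for Fcgrt, with errors of 0.36 to 0.40. Of the partner genes, Clec4d passed in other macrophages, with 464 and 172 CPM in PV and 0 in CV (79 UMIs against 0, edgeR adjusted p = 0.0239), and none of the other listed genes tested passed between zones in these 7 classes. The markers of neutrophils, a class with 1615 CPM of Clec4d, summed to 62.9 and 94.6 CPM in those macrophages of PV. In those of CV they summed to 60.4 and 40.1 CPM, and S100a9 was at 0 in both zones. The part of neutrophil RNA in the Clec4d difference was not tested.

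**Figure D5:**
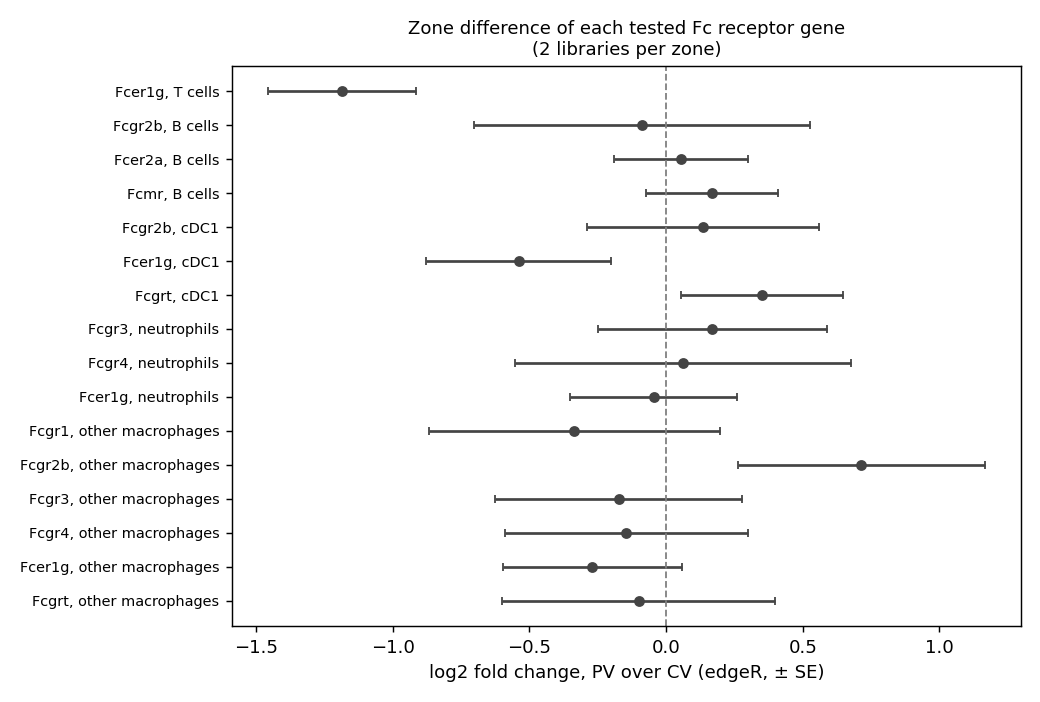
Log2 fold change of PV over CV with its SE for the 16 tests of a receptor gene within a class, from edgeR on 2 libraries per zone. The bars lie on both sides of 0, Fcer1g in T cells lies farthest out at -1.19, and none passed the test over all genes.

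Patterns over the classes were compared by Pearson's r over 29 sums of a class in a library, as log2(CPM + 10). These points share libraries and their depth, and several share a class, so r is a description. Fcer2a and Fcmr had an r of 0.99 with each other, and Fcgr3 and Fcgr4 of 0.91. Fcgr2b had an r of 0.12 with Fcgr3 and 0.15 with Fcgr4, its neighbours on chromosome 1. The genes most like Fcgr1 were Itgb5 (0.99), an integrin chain, and the gate marker C1qb. Those most like Fcgr2b were Ciita (0.81), H2-Eb1 and H2-Aa, the regulator and 2 chains of MHC class II. Lilrb4a (0.95), Metrnl and Lilr4b were nearest to Fcgr3, and Klra2 (0.97), Siglece and Wfdc17 to Fcgr4. Tyrobp (0.90), Ccl3 and Fcgr3 were nearest to Fcer1g, and Rassf4 (0.93), Zfp385a and Smagp to Fcgrt. Vpreb3 (0.997) and Pou2af1 led for Fcer2a, and Fcer2a (0.99) and Vpreb3 for Fcmr, followed in both by the gate marker Pax5.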

How the data were processed

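Droplets were made with 10x Genomics 3' chemistry, per the labels' protocols, and the submitters' processing notes name Cell Ranger 4.0.0 and mm10. Each library has a matrix of UMI counts, as the authors deposited it. How cells were called, and with which annotation, is not given in the sources used here. Of 32285 gene identifiers, 32158 could be given a symbol. Positions come from GENCODE vM21 and promoter windows from RefSeq, both on GRCm38.

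A barcode passed with 200 genes or more and at most 10% mt- UMIs, and stayed only in the library with at least 70% of its UMIs. A cell took the class whose marker list had the largest share of markers detected, with at least 3 markers. It was mixed if an unrelated list had at least 2 markers and over 50% of that share. Related lists differed by class. Those of monocytes and cDC2 were related to other macrophages, and those of other macrophages and monocytes, but not cDC2, to Kupffer cells. Endothelial markers were unrelated to both. Macrophages with at least 3 Kupffer markers were Kupffer cells, and NK cells could carry T cell markers with at most 1 of Cd3d, Cd3e and Trac. These are marker gates, and class differences from other work may come from them. Doublets were left out only as mixed cells. Scrublet marked 2, 7, 1 and 2 cells, and leaving these out was an alternative.

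Counts were summed per library and class. edgeR 4.0.16 (TMM, filterByExpr, quasi-likelihood test, Benjamini-Hochberg over all genes tested, 0.05) was used, with the zone alone or with the class and the library as a block. It was tested on simulated data. edgeR gives no SE here, so each SE is the absolute log2 value divided by the square root of the test's F statistic. DESeq2 1.42.0, barcode, cell, gate and filter alternatives and each library left out were run. Means are over libraries. A count of 0 was read as up to 3 counts. For likeness, the 3 genes with the highest r and a mean of at least 20 CPM were named, leaving out gene models without a proper name. All 8 receptor genes were named, and from each gene list up to 4 genes with the smallest adjusted p. The receptor genes, gene lists and tests were chosen with earlier results of these data known. The labels do not say whether same-numbered libraries of the zones belong together, so the fits by zone have no block. One gene that the likeness rule names is not reported here.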

Additional observations from a re-analysis of the deposited data

How the results depend on the processing

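Of 24 receptor gene calls between classes, 21 kept direction and call in all their alternatives, and none of 225 repeats turned a direction. The 3 that lost a call in some were Fcgr4 and Fcgrt in Kupffer cells against other macrophages and Fcgr3 in cDC2 against cDC1, with values given beside them. Receptor genes called in Kupffer cells against other macrophages went from 3 to 1 to 2 when a library was left out, and in T cell zones from 0 to 0 to 1. Of the log2 values that did not pass, Fcgr1 in Kupffer cells against other macrophages turned from -0.32 to 0.26 under stricter cell limits (-0.76 to 0.15 with a library left out), and Fcgrt in cDC2 against cDC1 from 0.05 to -0.079 with no filter. Zone values turned with shared barcodes kept in Kupffer cells, for Fcgr3 (-0.031), Fcer1g (0.32) and Fcgrt (-0.030), and with no filter on low counts for Fcgr4 in neutrophils (-0.050) and Fcer1g in NK cells and ILC1 (-0.25). Leaving out a library gave ranges across 0 or on its other side. In B cells these were -2.75 to 0.47 for Fcgr2b, -0.030 to 0.14 for Fcer2a and -0.049 to 0.45 for Fcmr. In cDC1 they were -0.29 to 0.76 for Fcgr2b and -0.030 to 0.62 for Fcgrt, and in neutrophils -0.39 to 0.72 for Fcgr3 and -0.26 to -0.20 for Fcgr4, which was tested only without PV replicate 2 and without CV replicate 2. In other macrophages they were -0.91 to 0.51 for Fcgr1, -0.45 to 0.20 for Fcgr3, -0.41 to 0.18 for Fcgr4 and -0.40 to 0.20 for Fcgrt. In Kupffer cells they were -0.92 to 0.53 for Fcgr1, -0.068 to 0.31 for Fcgr3 and -0.0100 to 0.41 for Fcgrt, and in NK cells and ILC1 -0.15 to 0.18 for Fcer1g. The cause of these turns was not tested. Counts of all genes passing between zones moved as follows. With the replicate block, a paired fit by replicate number, they were 1 in T cells and 33 in cDC1 (0 in each without it), 3 in other macrophages (11), 2 in Kupffer cells (1) and 0 in NK cells and ILC1 (1), with 0 receptor genes. Same-numbered libraries had deviations correlated at -0.115 to 0.166 over 5 classes, lowest in B cells, where the crossed replicate block gave 4 genes in place of 0. DESeq2 gave 1 in T cells and 0 in Kupffer cells. With no filter the counts were 1 in B cells, 41 in cDC1, 2 in neutrophils, 47 in other macrophages, 4 in Kupffer cells and 9 in NK cells and ILC1. With shared barcodes kept they were 1 in other macrophages and 9 in NK cells and ILC1, where the stricter limits and the stricter gate gave 0. Leaving out a library gave 6 to 56 in T cells, 2 to 15 in B cells, 20 to 67 in cDC1, 0 to 28 in neutrophils, 17 to 51 in other macrophages, 0 to 52 in Kupffer cells and 3 to 16 in NK cells and ILC1. Between classes, 655 genes in Kupffer cells against other macrophages became 325 (stricter limits), 421 (stricter gate), 338 (DESeq2) and 260 to 579 (a library left out), 2811 against B cells became 1841 (DESeq2), 257 in cDC2 against cDC1 became 434 (stricter gate), 423 (scrublet doublets out), 90 (DESeq2) and 476 (no filter), and 710 in NK cells and ILC1 against T cells became 350 (DESeq2) and 442 to 485 (a library left out). Spearman's rho kept 12 of the 24 genes chosen for likeness. No zone fit of other macrophages was possible under the stricter limits or gate, nor of cDC2 against cDC1 under the stricter limits or with a library left out, since too few libraries had 10 cells. The zone tests rest on 10 to 16 other macrophages, 12 to 37 neutrophils and 149 to 187 T cells per library.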
